A study of Homo sapiens with 3 samples.

Results

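The WNT ligand genes WNT2B, WNT3, WNT3A, WNT4, WNT5A, WNT7A, WNT7B, WNT9A, WNT10A and WNT10B were examined by RNA-seq in CAL27 cells and in a pair of drug-resistant lines derived from them. They were picked out by gene symbol from a given list of names. The rule uses no measured value, but the list was chosen with earlier results of these data known. The list holds 10 of the 19 WNT genes among the 19220 genes of the count table. All 10 averaged 10 counts or more per library, the filter that left 13676 genes for comparison. Of the WNT genes not listed, WNT16 alone passed it.

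CAL27 is an established human cell line of oral squamous cell carcinoma (OSCC), labelled as wild type and grown in drug-free medium. CAL27/5FU is labelled as resistant to 5-fluorouracil (5FU), a pyrimidine analogue that inhibits thymidylate synthase, and was kept in 10 µM 5FU. CAL27/OXA is labelled as resistant to oxaliplatin (OXA), a platinum drug that crosslinks DNA, and was kept in 10 µM OXA. All lines were grown in the same serum-supplemented medium, and both resistant lines were in drug while CAL27 was not, so resistance and the presence of the drug cannot be told apart. The 5FU-resistant cells were raised by stepwise increases of the drug. How CAL27/OXA was raised, and whether either line is a clone, is not given in the sources used here.

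For each line 1 library was used, since further columns of the tables match no sample label, and the totals were 41786182 counts (CAL27), 37297713 counts (CAL27/5FU) and 43455488 counts (CAL27/OXA). No difference below therefore has a replicate check, no p-value was computed, and every interval covers counting error only. Both resistant lines were set against the same CAL27 library. All 8 squamous epithelial markers were over 3 counts in every line, but their summed level was 6739 FPKM (fragments per kilobase of gene length, scaled to library size) in CAL27 cells, 1789 in CAL27/5FU cells and 2504 in CAL27/OXA cells. In CAL27/OXA, 4 of the 8 were lower by more than 2-fold, namely KRT5, KRT14, KRT6A and KRT17, with log2 ratios between -3.63 and -2.17, while TP63, EPCAM, CDH1 and SFN lay between -0.16 and 0.13. In CAL27/5FU, 6 of the 8 were lower past 2-fold, these keratins together with TP63 at -1.28 and SFN at -1.08. Of the markers of other cells, 4 to 5 of 6 fibroblast, 3 of 5 leukocyte and 3 to 4 of 4 endothelial genes were over 3 counts. In the order CAL27, CAL27/5FU and CAL27/OXA, the fibroblast genes summed to 7.51, 11.9 and 14.9 FPKM. Among them COL1A1 went down from 1387 to 1068 and 1050 counts, and COL3A1 was at 0 throughout. LUM went up from 120 to 414 and 877, and COL1A2 (90, 300 and 212), PDGFRB (35, 55 and 76) and DCN (2, 6 and 8) were also higher in both resistant lines. The leukocyte genes summed to 9.85, 22.3 and 5.18 FPKM (nearly all CD14, with PTPRC at 2, 0 and 0 counts). The endothelial genes summed to 0.437, 2.29 and 1.06 FPKM. Of these CDH5 (43, 338 and 163 counts) and KDR (0, 3 and 6) were higher in both resistant lines, while PECAM1 (13, 6 and 11) and VWF (44, 19 and 29) were lower. The part of these markers in the ligand values was not tested.

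WNT proteins are secreted lipid-modified signals. The enzyme PORCN attaches the lipid to a serine, the carrier WLS takes the ligand to the cell surface, and the lipid then sits in a groove of a frizzled receptor. Canonical ligands act through frizzled and LRP5 or LRP6, stabilise β-catenin and so switch on TCF/LEF target genes. Non-canonical ligands act through other co-receptors such as ROR1 and ROR2, on planar polarity and calcium signals, and some ligands do either according to the receptors present. In squamous epithelia and their appendages, WNT signals are known for their part in basal cell growth and in the formation of teeth, hair and taste papillae. Here WNT2B, WNT3, WNT3A, WNT10A and WNT10B were taken as canonical, WNT4 and WNT5A as non-canonical, and WNT7A, WNT7B and WNT9A as either by context. This grouping is a convention, and each class value below rests on it.

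All members carry the lipid-bearing serine in a conserved coding stretch, which shows how alike the counted genes are at their most conserved site. The stretches of 39 bases below were read from the GENCODE 29 transcript of each gene with the longest coding sequence, with coordinates in GRCh38, and the capitals mark the serine codon. They run from the canonical ligands to those of either kind and end with the non-canonical ligands.
WNT2B, chr1:112517148-112517186, plus strand, exon 4 of 5: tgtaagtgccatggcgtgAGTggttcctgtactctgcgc
WNT3, chr17:46768734-46768772, minus strand, exon 4 of 5: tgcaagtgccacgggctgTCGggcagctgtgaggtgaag
WNT3A, chr1:228059013-228059051, plus strand, exon 4 of 4: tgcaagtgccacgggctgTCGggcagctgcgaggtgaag
WNT10A, chr2:218892801-218892839, plus strand, exon 4 of 4: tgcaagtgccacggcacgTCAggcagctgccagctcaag
WNT10B, chr12:48966488-48966526, minus strand, exon 5 of 5: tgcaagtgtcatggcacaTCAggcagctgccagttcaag
WNT7A, chr3:13819358-13819396, minus strand, exon 4 of 4: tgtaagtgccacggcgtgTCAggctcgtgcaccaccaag
WNT7B, chr22:45923270-45923308, minus strand, exon 4 of 4: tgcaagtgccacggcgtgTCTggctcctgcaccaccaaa
WNT9A, chr1:227921935-227921973, minus strand, exon 4 of 4: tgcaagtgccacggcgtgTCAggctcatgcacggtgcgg
WNT4, chr1:22120452-22120490, minus strand, exon 5 of 5: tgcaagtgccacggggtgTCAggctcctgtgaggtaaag
WNT5A, chr3:55470485-55470523, minus strand, exon 5 of 5: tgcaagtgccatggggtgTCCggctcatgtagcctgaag
The serine codon was TCA in 5 genes, TCG in WNT3 and WNT3A, and AGT, TCC and TCT in WNT2B, WNT5A and WNT7B. WNT3 and WNT3A shared 38 of the 39 bases, and WNT7A and WNT7B as well as WNT10A and WNT10B shared 35. Over the whole protein the identity was 84.9% for WNT3 with WNT3A, 77.1% for WNT7A with WNT7B and 63.0% for WNT10A with WNT10B. The longest exact run shared by the transcripts of these pairs was 35, 30 and 20 nt. Among all pairs of members it was 38 nt, between WNT7A and WNT9A. How the counting treated reads that match several genes is not given in the sources used here.

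In CAL27/OXA the ligand set had a different make-up from CAL27. WNT7B, WNT7A and WNT3 rose past 2-fold, and WNT4, WNT9A, WNT10A and WNT2B fell past 2-fold. WNT3A, WNT5A and WNT10B stayed within 2-fold. Canonical and non-canonical ligands did not move as blocks, since the canonical class held a gene that rose and 2 that fell, and the non-canonical class held the gene with the largest fall of the 10 and a gene with a positive ratio. In bulk RNA, fewer cells expressing a ligand and less RNA per cell cannot be told apart.

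**Figure D1:**
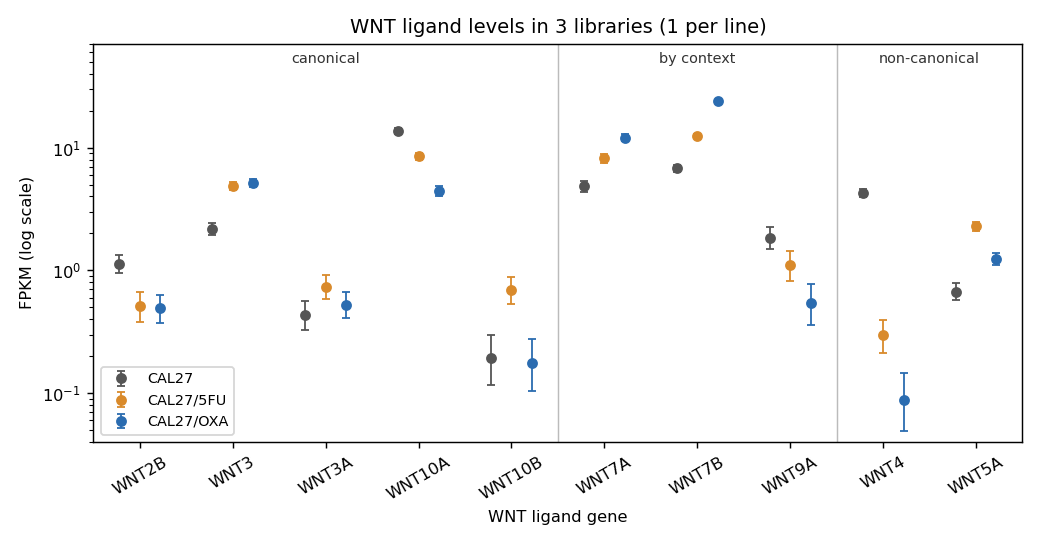
Deposited FPKM values of the 10 ligands on a log axis, 1 point per line and gene, with exact 95% Poisson intervals on the counts as bars. WNT7B climbs from 6.78 in CAL27 to 23.8 in CAL27/OXA, and WNT4 drops from 4.25 to 0.0884.

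Of the canonical ligands, WNT10A, which is needed for teeth, hair follicles and taste papillae, had 1356 counts in CAL27 cells, 753 in CAL27/5FU cells and 455 in CAL27/OXA cells. Per length this was 13.7, 8.50 and 4.41 FPKM. It was the most abundant ligand of CAL27 and the fourth of CAL27/OXA, where it was 3.39-fold lower (log2 ratio -1.76, interval -1.92 to -1.61).

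WNT3, a canonical ligand required for gastrulation and a niche signal of intestinal stem cells, had 304, 609 and 751 counts in CAL27, CAL27/5FU and CAL27/OXA, or 2.17, 4.87 and 5.15 FPKM. Both resistant lines stood above CAL27 and near each other. The ratio of CAL27/OXA to CAL27 was 2.16-fold (log2 1.11, interval 0.92 to 1.31), so the lower end of the interval lay under 2-fold. The call was kept in 8 of the 9 ways of scaling the counts, setting the prior count or using FPKM.

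WNT3A, the ligand most used to switch on the pathway in culture, had 54, 81 and 68 counts, or 0.435, 0.731 and 0.526 FPKM. Its log2 ratio was 0.14 in CAL27/OXA, and the interval from -0.39 to 0.69 included no difference. WNT3 thus outnumbered its nearest relative WNT3A in every line, by 4.99-fold in CAL27 cells, 6.66-fold in CAL27/5FU cells and 9.78-fold in CAL27/OXA cells on the FPKM scale.

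WNT2B, a canonical ligand of lung and eye development, had 129, 52 and 58 counts, or 1.13, 0.511 and 0.489 FPKM. It was lower in both resistant lines by about the same amount, with a log2 ratio of -1.31 in CAL27/OXA (interval -1.82 to -0.88). WNT2B overlaps ST7L on the opposite strand, which had 551, 628 and 530 counts. The strand setting of the counting is not given in the sources used here, so reads of the pair cannot be told apart.

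WNT10B, a canonical ligand known for promoting bone formation and holding back fat cell formation, had 19, 61 and 18 counts, or 0.192, 0.690 and 0.175 FPKM. CAL27 and CAL27/OXA were alike and CAL27/5FU stood above both. The log2 ratio of CAL27/OXA to CAL27 was -0.24, and with so few counts the interval ran from -1.28 to 0.74, which includes a 2-fold fall.

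The 3 ligands that signal by context all passed 2-fold in CAL27/OXA. WNT7B, a ligand of lung growth and of blood vessels in the brain, had 1109 counts in CAL27 cells, 1817 in CAL27/5FU cells and 4057 in CAL27/OXA cells, or 6.78, 12.4 and 23.8 FPKM. Its log2 ratio of 1.68 (3.20-fold, interval 1.59 to 1.78) was the highest of the 10 and ranked 401 of 13676 genes from the top. Ranked by FPKM among the genes compared, it went from percentile 44.9 in CAL27 to 74.0 in CAL27/OXA.

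WNT7A, which patterns the back of the limb and the female reproductive tract, followed WNT7B at a lower size. It had 348, 525 and 896 counts, or 4.86, 8.21 and 12.0 FPKM, and its log2 ratio in CAL27/OXA was 1.17 (interval 0.99 to 1.36). The FPKM ratio of WNT7B to WNT7A within a library was 1.40 in CAL27 cells, 1.52 in CAL27/5FU cells and 1.98 in CAL27/OXA cells. WNT7B therefore stood further above its relative in CAL27/OXA than in CAL27, by more than the counting intervals (1.84 to 2.13 against 1.24 to 1.57). With GENCODE 29 transcript lengths, an alternative chosen after seeing the data, these ratios were 5.64, 6.12 and 8.01, so their size rests on the length used, while their relation between libraries does not.

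WNT9A, a ligand of joint formation, went the other way with 96, 51 and 29 counts, or 1.85, 1.10 and 0.538 FPKM. Its log2 ratio in CAL27/OXA was -1.84 (3.58-fold lower, interval -2.57 to -1.30). A microRNA gene, MIR5008, lies within it on the same strand.

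Of the non-canonical ligands, WNT4, a signal of kidney tubule and ovary development, had 694 counts in CAL27 cells, 43 in CAL27/5FU cells and 15 in CAL27/OXA cells, or 4.25, 0.295 and 0.0884 FPKM. A non-coding gene on the opposite strand, AL445253.1, overlaps it. WNT4 was the fourth ligand of CAL27 and the last in both resistant lines. In CAL27/OXA it was 46.2-fold lower (log2 ratio -5.53, interval -6.57 to -4.99), rank 13650 of 13676 genes from the top.

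WNT5A, the prototype non-canonical ligand, which acts through ROR2 on cell polarity and movement, had 165, 501 and 315 counts, or 0.671, 2.28 and 1.23 FPKM. Both resistant lines lay above CAL27, and CAL27/OXA lay between the others. Its log2 ratio in CAL27/OXA was 0.74 (interval 0.47 to 1.02), within 2-fold. The antisense gene WNT5A-AS1 overlaps it on the opposite strand and was not analysed here. WNT5A was at 0.158 of the FPKM level of WNT4 in CAL27 cells, at 7.74 times it in CAL27/5FU cells and at 13.9 times it in CAL27/OXA cells, so the leading non-canonical ligand was WNT4 in CAL27 and WNT5A in both resistant lines.

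Counted together for CAL27/OXA against CAL27, 3 of the 10 ligands were higher past 2-fold, where 6.54% of all genes compared were, and 4 were lower, where 9.28% were. The median of the 10 log2 ratios was -0.05 and that of all genes was 0.01. The median size of the log2 ratio, leaving its sign aside, was 1.24 for the ligands and 0.34 for all genes. The counting interval lay wholly past 2-fold for WNT7B, WNT4, WNT9A and WNT10A, as it did for 1390 of all 13676 genes compared. It excluded no difference for 8 ligands, and the share of all genes for which it did so was not computed. With log2(FPKM + 1), which shrinks ratios of low genes, the calls of WNT2B (-0.52), WNT3 (0.96) and WNT9A (-0.89) were lost.

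**Figure D2:**
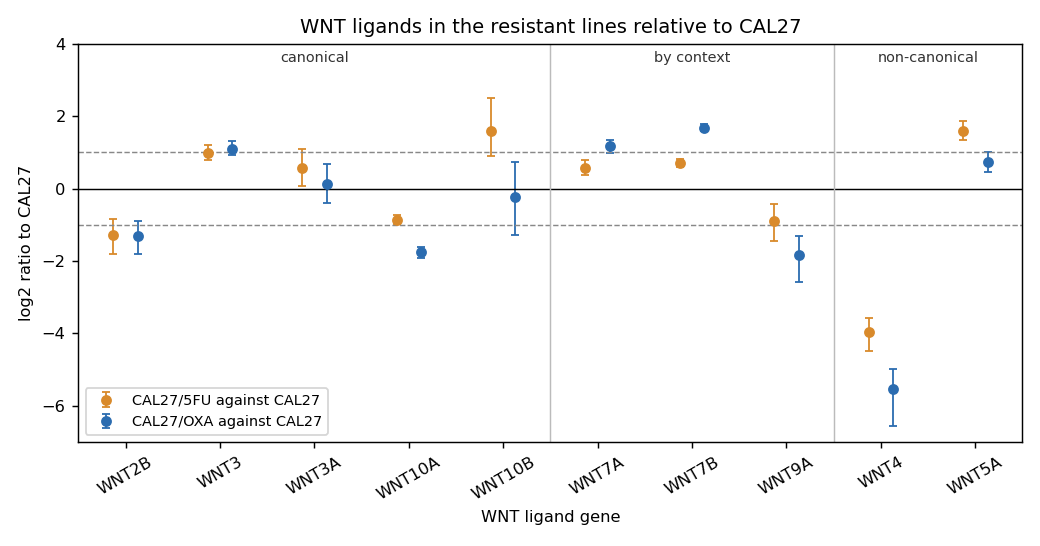
Log2 ratios of both resistant lines to CAL27 for the 10 ligands, with exact 95% counting intervals as bars and dashed lines at 2-fold. WNT4 lies at -5.53 in CAL27/OXA and -3.96 in CAL27/5FU, WNT7B lies at 1.68 and 0.70, and WNT10B is on opposite sides of 0 at -0.24 and 1.58.

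In CAL27/5FU, which shares the CAL27 library, fewer ligands passed 2-fold. WNT5A and WNT10B were higher, with log2 ratios of 1.58 (interval 1.34 to 1.86) and 1.58 (interval 0.91 to 2.50), that is 2 of 10 where 8.46% of all genes were. WNT4 and WNT2B were lower, at -3.96 (interval -4.50 to -3.57) and -1.29 (interval -1.81 to -0.84), that is 2 of 10 where 6.72% of all genes were. WNT3 had a log2 ratio of 0.99 (interval 0.79 to 1.20), on the edge of 2-fold, and passed it in 3 of the 9 ways above. With log2(FPKM + 1) the calls of WNT2B (-0.50), WNT5A (0.97) and WNT10B (0.50) were lost.

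The other ligands of CAL27/5FU were within 2-fold. WNT7B was at 0.70, WNT7A at 0.58 and WNT3A at 0.56, while WNT10A was at -0.85 and WNT9A at -0.89. The median log2 ratio was 0.57, against 0.00 for all genes, and the median size was 0.94 against 0.33. Side by side, 5 ligands had positive ratios to CAL27 in both lines, 4 had negative ratios in both, and WNT10B differed in sign. WNT4 and WNT2B were lower past 2-fold in both lines and no ligand was higher past 2-fold in both. WNT3 came nearest to that, at 1.11 in CAL27/OXA and 0.99 in CAL27/5FU. Scaled by total counts it passed 2-fold in both, at 1.24 and 1.16. Since both sets of ratios use the same CAL27 values, these counts are not independent of each other. The share of all genes with the same sign or call in both lines was not computed. These counts are therefore not read as a trait of the ligands.

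The direct comparison of CAL27/OXA with CAL27/5FU leaves out the CAL27 counts, although the TMM scaling used all libraries. Here 0 of the 10 ligands were higher past 2-fold, where 4.18% of all genes were, and 2 were lower, where 8.38% were. These were WNT10B, with a log2 ratio of -1.82 (interval -2.79 to -1.17), and WNT4, at -1.57 (interval -2.66 to -0.83). Both calls were lost with log2(FPKM + 1), at -0.52 and -0.25. WNT7B was just within 2-fold at 0.98 (interval 0.90 to 1.06), and WNT7A was at 0.59.

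WNT9A, WNT10A and WNT5A lay at -0.95, -0.91 and -0.85 in the same comparison. WNT3, at 0.12 (interval -0.04 to 0.28), WNT2B, at -0.02 (interval -0.59 to 0.54), and WNT3A, at -0.42 (interval -0.92 to 0.05), had intervals that included no difference. For WNT3 this interval reaches no further than 1.21-fold, so the libraries of the resistant lines were close in WNT3. It covers counting error only, and whether the lines themselves are alike in WNT3 was not tested.

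Within each library the ligands could also be set against each other per length, which does not depend on how the libraries were scaled. The summed FPKM of the 10 ligands was 36.0 in CAL27 cells, 39.6 in CAL27/5FU cells and 48.5 in CAL27/OXA cells. Unlike shares and ratios within a library, the size of this sum does depend on the scaling, here by total counts. WNT10A made up 37.9% ± 0.80 of this sum in CAL27 (counting standard error), 21.4% ± 0.68 in CAL27/5FU and 9.09% ± 0.40 in CAL27/OXA. WNT7B made up 18.8% ± 0.54, 31.4% ± 0.67 and 49.2% ± 0.65. The leading ligand was thus WNT10A in CAL27 and WNT7B in both resistant lines.

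The FPKM ratio of WNT7B to WNT10A was 0.496 (interval 0.458 to 0.537) in CAL27 cells, 1.46 (interval 1.34 to 1.59) in CAL27/5FU cells and 5.41 (interval 4.91 to 5.96) in CAL27/OXA cells, and these intervals did not overlap. WNT7A took 13.5%, 20.7% and 24.8% of the sum, WNT3 took 6.02%, 12.3% and 10.6%, and WNT4 took 11.8%, 0.745% and 0.182%. Levels per length rest on the gene length used. The FPKM values imply 3915 nt for WNT7B, where its GENCODE 29 transcript has 2285 nt. With the GENCODE transcript lengths, WNT7B took 32.7%, 50.5% and 70.8% of the sum and WNT10A took 35.8%, 18.8% and 7.12%, and the leading ligand of each line stayed the same. The ratio of WNT7B to WNT10A was then 0.912, 2.69 and 9.94. WNT7A took 5.79%, 8.25% and 8.84%, and in CAL27/OXA it came after WNT3, at 8.92%.

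**Figure D3:**
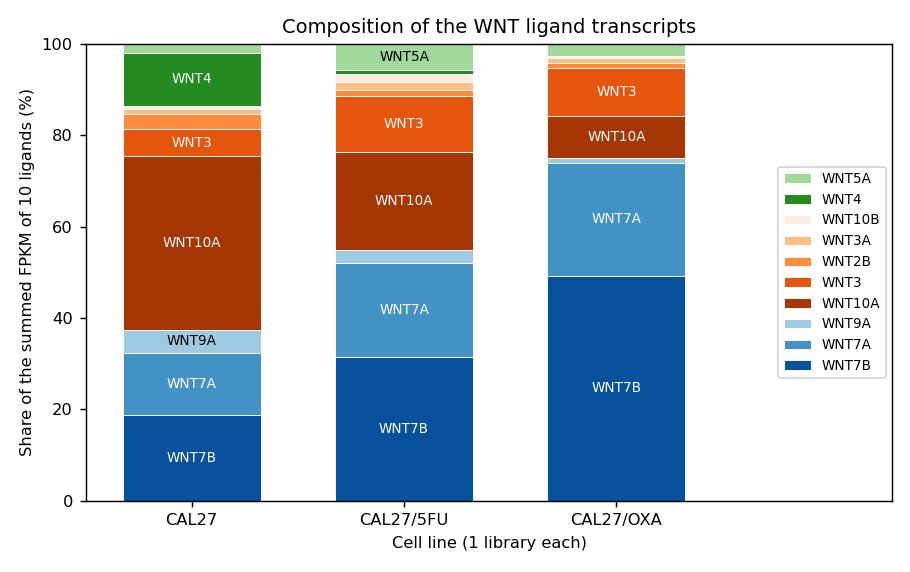
Share of each ligand in the summed FPKM of the 10 ligands, in percent, as a stacked bar for each line, with canonical ligands in orange, ligands of either kind in blue and non-canonical ligands in green. The blue block grows from 37.5% in CAL27 to 54.9% in CAL27/5FU and 75.1% in CAL27/OXA.

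By class, canonical ligands held 48.9% of the summed FPKM in CAL27 cells, 38.6% in CAL27/5FU cells and 22.2% in CAL27/OXA cells. Non-canonical ligands held 13.7%, 6.51% and 2.72%, and ligands of either kind held 37.5%, 54.9% and 75.1%. In FPKM, the canonical sum was 17.6 ± 0.41, 15.3 ± 0.39 and 10.7 ± 0.30, and the non-canonical sum was 4.92 ± 0.17, 2.58 ± 0.11 and 1.32 ± 0.073 (counting standard errors). On this scale, set by total counts, both sums were lowest in CAL27/OXA, and the non-canonical sum was lower by the larger factor. The falls followed WNT10A (13.7, 8.50 and 4.41 FPKM) and WNT4 (4.25, 0.295 and 0.0884), which led their classes in CAL27. WNT3 (2.17, 4.87 and 5.15) and WNT5A (0.671, 2.28 and 1.23) were higher in both resistant lines, and WNT2B (1.13, 0.511 and 0.489) was lower. Neither sum therefore stands for each of its ligands.

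The log2 ratio of the canonical to the non-canonical sum was 1.84 ± 0.060 in CAL27 cells, 2.57 ± 0.073 in CAL27/5FU cells and 3.02 ± 0.089 in CAL27/OXA cells. It was higher by 1.19 (interval 0.98 to 1.40) in CAL27/OXA and by 0.73 (interval 0.55 to 0.92) in CAL27/5FU than in CAL27, and CAL27/OXA was above CAL27/5FU by 0.46 (interval 0.23 to 0.68).

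The place of CAL27 in this order rested on a single gene. With WNT4 in neither sum, the ratios became 4.71, 2.74 and 3.12, and the differences from CAL27 turned to -1.59 in CAL27/OXA and -1.97 in CAL27/5FU. CAL27/OXA still lay above CAL27/5FU, by 0.38 (interval 0.15 to 0.61). With WNT7A, WNT7B and WNT9A counted as canonical, the ratios were 2.66, 3.84 and 5.16, and the difference of CAL27/OXA from CAL27 was 2.50.

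**Figure D4:**
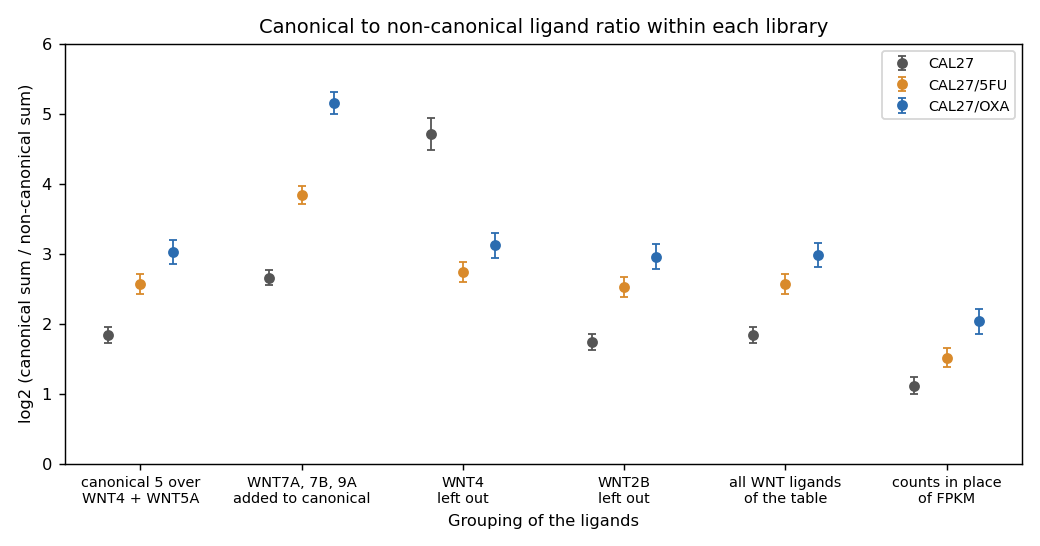
Log2 ratio of the summed canonical to the summed non-canonical ligands in each line under 6 ways of grouping or measuring, with bars of 95% counting intervals. CAL27/OXA is the highest line at 3.02 with the grouping used here, and CAL27 is the highest at 4.71 when WNT4 is left out.

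The other 9 WNT genes were barely detected. WNT16 alone passed the filter, with 6, 17 and 20 counts and a log2 ratio of 1.30 (interval 0.18 to 3.15) in CAL27/OXA. WNT6, which neighbours WNT10A, had 18, 8 and 0 counts, and 0 counts allow up to 3. WNT8B had 0, 14 and 6 counts and WNT11 had 0, 0 and 4.

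The machinery that matures and releases ligands was present in every line. WLS, the carrier, had 4490, 3760 and 4619 counts, with log2 ratios of -0.15 in CAL27/OXA and -0.26 in CAL27/5FU. PORCN, the acyltransferase that all 10 ligands need, had 977, 766 and 591 counts, with log2 ratios of -0.91 and -0.36. Of the 4 genes compared in this group, 0 were past 2-fold in CAL27/OXA, with a median log2 ratio of 0.18 beside 0.01 for all genes. In CAL27/5FU the WNT-cleaving protease genes TRABD2A and TRABD2B passed it in opposite directions. TRABD2A was at 1.40 (interval 1.22 to 1.60), with 328, 875 and 534 counts. TRABD2B was at -1.41, with only 19, 6 and 43 counts and a wide interval from -3.28 to -0.29.

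Among 10 frizzled and LRP genes compared, 2 were higher past 2-fold in CAL27/OXA and 0 were lower, with a median log2 ratio of -0.18. Of all genes compared, 6.54% were higher and 9.28% lower past 2-fold in CAL27/OXA, which is the background for each list below. FZD4, a frizzled known for retinal vessels, had 198, 365 and 490 counts and a log2 ratio of 1.11. FZD8 had 2, 20 and 14 counts, and its log2 ratio of 1.86 has an interval from 0.50 to 5.80. The canonical co-receptors LRP5 and LRP6 were at -0.29 and 0.09.

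Of 5 co-receptors of other branches, ROR1, an orphan receptor kinase that binds WNT5A, was higher, with 9, 69 and 40 counts and log2 ratios of 1.76 (interval 0.90 to 3.19) in CAL27/OXA and 2.69 (interval 1.92 to 4.12) in CAL27/5FU. The median of the 5 in CAL27/OXA was -0.44. ROR2 had 6, 6 and 8 counts. RECK and ADGRA2, which form a receptor for WNT7A and WNT7B and are named here after their values were seen, had 316, 259 and 359 counts and 9, 22 and 7 counts. RECK had a log2 ratio of -0.01 in CAL27/OXA. Of 4 genes of the R-spondin arm, which tunes receptor turnover, 0 passed 2-fold in CAL27/OXA, with a median of 0.08.

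Of the secreted antagonists 3 were compared, with a median of 0.89 in CAL27/OXA. DKK3, a dickkopf family member, was higher past 2-fold, with 1391, 245 and 4485 counts and log2 ratios of 1.50 in CAL27/OXA and -2.50 in CAL27/5FU. On the nuclear side, LEF1 and TCF7, both partners of β-catenin on DNA, were higher among 5 genes with a median of -0.08, at 57, 327 and 357 counts for LEF1 (log2 ratio 2.42 in CAL27/OXA) and 59, 307 and 261 for TCF7 (1.92). CTNNB1, which encodes β-catenin itself, was at -0.08. Of 6 β-catenin target genes compared, 2 were higher and 0 lower in CAL27/OXA, with a median of 0.59, namely SP5 at 1.97 and the cell cycle gene CCND1 at 1.54. In CAL27/5FU 3 were higher, SP5 at 2.07, CCND1 at 1.50 and ZNRF3 at 1.05, beside 8.46% of all genes. There 1 was lower, NKD1 at -1.01 (32, 15 and 39 counts), beside 6.72%, and the median was 0.67. AXIN2, the usual readout of the canonical pathway, had 0, 13 and 2 counts and was under the filter. Whether these genes moved with the ligands was not tested.

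Among 8 planar polarity genes, which serve the non-canonical branch, 0 were higher and 2 were lower past 2-fold in CAL27/OXA, with a median of -0.24. VANGL2, a core polarity membrane protein, had 606, 203 and 114 counts and a log2 ratio of -2.58, and CELSR2, a polarity cadherin, had 3727, 1811 and 731 counts and a log2 ratio of -2.54. Both were also lower past 2-fold in CAL27/5FU, at -1.58 and -1.05. PRICKLE1, another gene of the list, was higher there at 1.93 (interval 1.41 to 2.62), and the list median in CAL27/5FU was 0.005. Over all these pathway lists the number of genes past 2-fold was 11 in CAL27/OXA and 17 in CAL27/5FU among 44 compared. In CAL27/OXA 9 were higher and 2 lower, beside 6.54% and 9.28% of all genes, and in CAL27/5FU 12 were higher and 5 lower, beside 8.46% and 6.72%.

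Among the genes whose pattern over the libraries lay nearest to that of WNT3 were CHAC1, a glutathione-degrading enzyme, and TMEM98, a membrane protein, both at a distance of 0.05 in log2 CPM, out of 11541 genes that averaged 100 counts or more. With only 3 libraries such a pattern is not rare, and 159 genes lay within 0.25 of WNT3. For WNT4 no gene lay that near. The nearest were PKP1, a desmosome protein of squamous epithelium, with 10588, 507 and 267 counts, OLFML2A, with 5962, 421 and 224, and PI3, the protease inhibitor elafin of keratinocytes, with 1845, 204 and 55, at distances of 0.37 to 0.56. No keratin was among these. KRT5 and KRT14 had log2 ratios of -2.17 and -2.98 in CAL27/OXA and of -2.64 and -5.94 in CAL27/5FU, lower in CAL27/5FU. KRT6A and KRT17 had -3.63 and -2.22 in CAL27/OXA and -2.48 and -1.96 in CAL27/5FU. All 4 were lower than CAL27 in both lines. Set against CAL27/5FU, the log2 ratio in CAL27/OXA was -1.57 for WNT4, -1.14 for KRT6A and -0.26 for KRT17. It was 0.48 for KRT5 and 2.97 for KRT14. The part of squamous differentiation in the fall of WNT4 was not tested.

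The ligand genes lie on chromosomes 1, 2, 3, 12, 17 and 22, and the position of the members was not used to choose them. Around each ligand, the 10 nearest genes compared, 5 on each side, had a median log2 ratio in CAL27/OXA between -0.42, around WNT4, and 0.18, around WNT2B. None of these medians was near the ratio of a ligand that passed 2-fold.

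**Figure D5:**
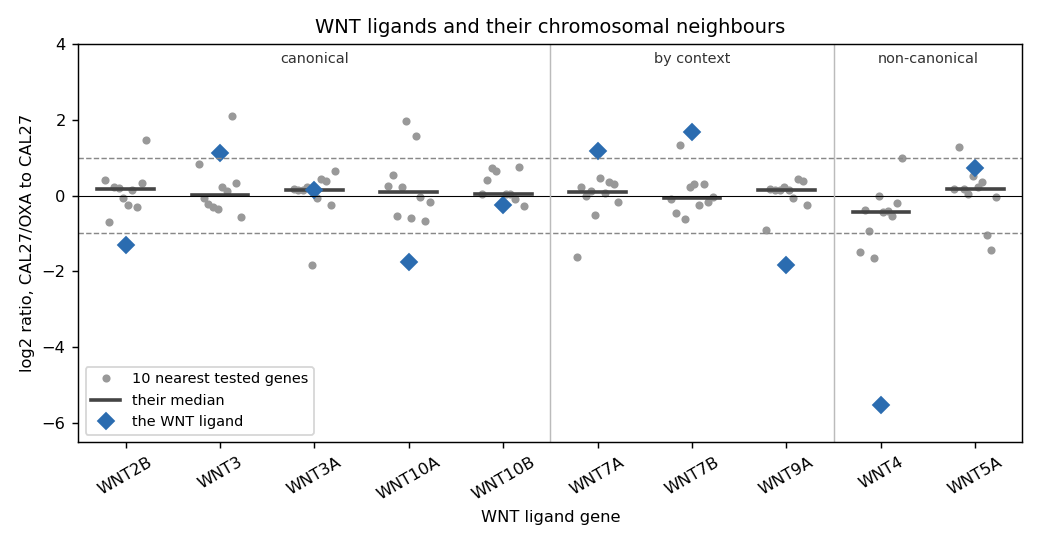
Log2 ratio of CAL27/OXA to CAL27 for each ligand (blue diamonds), for its 10 nearest compared genes (grey points, in chromosomal order) and for their median (bars), with dashed lines at 2-fold. WNT4 at -5.53 lies below all of its neighbours, whose lowest value is -1.66, and WNT7B at 1.68 lies above all of its own, whose highest value is 1.33.

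Around WNT4, HSPG2, which encodes perlecan of basement membranes, at -1.66 and RAP1GAP at -1.49 were lower past 2-fold, while CDC42 was at -0.02 and LUZP1 at -0.20. Around WNT7B, RIBC2 was higher at 1.33 and FBLN1 was at -0.62. Around WNT10A, CYP27A1 at 1.96 and CRYBA2 at 1.58 were higher, opposite to WNT10A, with 86 and 18 counts in CAL27/OXA. WNT9A lies 59.2 kb from WNT3A on chromosome 1 in GRCh38, and this adjacent pair had log2 ratios of -1.84 and 0.14.

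RefSeq promoter windows of 300 bases (GRCh38.p14) were matched for 8 of the 10 ligands, all but WNT7B and WNT10B, and numbered 10. The TCF/LEF core CTTTGA was in 0 of the 10 windows, against 12.9% of 35116 promoters, and CTTTGT was in 1, that of WNT3, against 16.1%. The GC box GGGCGG, a site of the SP factors, was in 8, against 45.0%, the E-box CAGGTG was in 4, against 20.6%, and TATAAA was in 0, against 11.5%. All motifs were searched on both strands, and matches of 1 motif may overlap.

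Of the ligands that fell in CAL27/OXA, the windows before the start of WNT2B, WNT4 and WNT9A that overlap no exon of GENCODE 29 are shown, as 250 bases each. That of WNT4 lies in an intron of the longer GENCODE gene model, and those of WNT2B and WNT9A lie just outside their genes. Capitals mark the GC box on either strand (GGGCGG or CCGCCC), with 9 matches at WNT4, 3 at WNT9A and 0 in this window of WNT2B, whose other window, not shown, held 4.
WNT2B, chr1:112466291-112466540, plus strand: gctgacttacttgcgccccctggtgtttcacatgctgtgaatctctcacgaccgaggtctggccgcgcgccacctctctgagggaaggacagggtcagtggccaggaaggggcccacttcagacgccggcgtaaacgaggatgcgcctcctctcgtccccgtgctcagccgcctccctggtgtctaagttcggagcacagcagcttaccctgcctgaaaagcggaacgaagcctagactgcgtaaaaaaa
WNT4, chr1:22143098-22143347, minus strand: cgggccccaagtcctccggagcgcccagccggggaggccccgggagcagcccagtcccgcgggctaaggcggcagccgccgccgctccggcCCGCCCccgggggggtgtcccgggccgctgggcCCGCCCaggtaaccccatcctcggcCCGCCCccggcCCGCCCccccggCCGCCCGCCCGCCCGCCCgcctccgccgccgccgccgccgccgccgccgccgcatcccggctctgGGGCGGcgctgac
WNT9A, chr1:227947933-227948182, minus strand: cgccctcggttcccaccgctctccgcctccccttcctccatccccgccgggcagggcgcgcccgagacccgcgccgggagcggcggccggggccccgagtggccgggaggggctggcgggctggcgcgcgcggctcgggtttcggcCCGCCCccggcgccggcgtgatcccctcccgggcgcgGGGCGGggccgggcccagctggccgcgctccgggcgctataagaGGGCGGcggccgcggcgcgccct
The matches describe these windows and were not related to the change of any of these genes.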

How the data were processed

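Total RNA from CAL27, CAL27/5FU and CAL27/OXA cells was sequenced by the authors on an Illumina platform, 1 library per line here. The submitters' processing notes name CASAVA 1.8, HISAT2 2.0.5 and GRCh38 (hg38). The counting tool, its strand setting and the annotation are not given in the sources used here. The authors deposited read counts per gene symbol, without normalization, for 19220 genes, and FPKM values for 19225 genes. The gene length implied by FPKM was the same in every library, within 0.1%, for 100% of 14367 genes, so FPKM is scaled by total counts. A further 3 columns of per-sample values, named like second samples of the same lines, match no sample label and were not used. The limit to 1 library per line thus lies in the columns used, and with these mapped a replicate check could be made.

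Counts were scaled with TMM factors of 0.932, 1.05 and 1.02 (edgeR 4.0.16, R 4.3.3), and log2 CPM ratios took a prior count of 2. The genes compared averaged 10 counts or more, and those past 2-fold, the fold threshold of the study, were called. With 1 library per line used, no test was made, and the study's adjusted p-value from DESeq2 was not computed. Intervals are exact 95% Clopper-Pearson (ratios) or Poisson (levels), and propagated for sums. Zero counts allow up to 3. Scripts were tested on simulated data.

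The members, the classes and the pathway lists were chosen with earlier results of these data known. Named were the 10 ligands, pathway genes past 2-fold in CAL27/OXA (up to 4 per list, with at least 10 counts on average) with CTNNB1, AXIN2, PORCN and WLS, the nearest patterns to WNT3 and to the ligand with the largest ratio, and neighbours of ligands with a whole interval past 2-fold. Others were named after their values were seen. Alternatives were DESeq2 1.42.0 size factors, total counts, upper quartile, TMM over the compared libraries only, prior counts of 0.5 and 5, FPKM with pseudocounts of 0.1 and 1, other filters and thresholds, other ligand groupings, and, chosen after seeing the data, GENCODE 29 transcript lengths. Positions came from GENCODE 29 (GRCh38) and promoters from RefSeq. A gene that the rule on nearest patterns named is not reported here.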

Additional observations from a re-analysis of the deposited data

Results flagged for a closer look

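WNT10B was the only ligand whose ratio to CAL27 differed in sign between the resistant lines, with a log2 ratio of -0.24 in CAL27/OXA and 1.58 in CAL27/5FU. Its counts were 19, 61 and 18 in CAL27, CAL27/5FU and CAL27/OXA. With 1 library per line the difference was not tested, and the interval in CAL27/OXA included 0.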

How the results depend on the processing

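Of 240 values of a ligand ratio under another setting, 217 stayed within the counting interval, 23 lay outside it and 0 changed sign. No paired analysis was possible because 1 library per line could be matched to a label (3 further columns were not used), and for the same reason no library was left out. Total counts moved the median log2 ratio of all genes to 0.14 in CAL27/OXA and 0.17 in CAL27/5FU. The higher share of called genes went from 41.3% to 51.1% in CAL27/OXA (1100 higher and 1052 lower, beside 894 and 1269) and from 55.7% to 67.2% in CAL27/5FU. The ligands of CAL27/OXA stayed at 3 higher and 4 lower, and those of CAL27/5FU went from 2 and 2 to 3 and 2, with WNT3 added.

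The differences in the log2 class ratio from CAL27 reversed with WNT4 in neither sum, to -1.59 (CAL27/OXA) and -1.97 (CAL27/5FU), where the ratios were 4.71 in CAL27 and 2.74 in CAL27/5FU. With the ligands of either kind as canonical, the ratios were 2.66, 3.84 and 5.16 and the differences 2.50, 1.19 and, between the resistant lines, 1.31. With summed counts, the ratios were 1.12, 1.52 and 2.03 and the differences from CAL27 0.92 and 0.40. With GENCODE lengths, WNT7B took 32.7%, 50.5% and 70.8% and WNT10A 35.8%, 18.8% and 7.12%.

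Counts past 2-fold are given as CAL27/OXA, CAL27/5FU and the resistant lines against each other. All genes numbered 2163, 2076 and 1717, but 3273, 3454 and 2842 with no filter, 849, 814 and 602 with FPKM and a pseudocount of 1, 708, 690 and 519 past 4-fold, and 1390, 1342 and 1028 with the whole interval past 2-fold. Ligands numbered 7, 4 and 2, but 4, 1 and 0 with that pseudocount, 1, 1 and 0 past 4-fold, and 4, 2 and 1 by the whole interval, and 1 between the resistant lines with a mean of at least 50 counts. Pathway genes numbered 11, 17 and 8, but 18, 27 and 17 with no filter, 7, 7 and 2 with that pseudocount, 3, 6 and 3 past 4-fold, and 7, 11 and 5 by the whole interval. With a mean of at least 50 counts they were 10 in CAL27/5FU and 4 between the resistant lines, where a pseudocount of 0.1 also gave 4. The pseudocount shrinks ratios of low genes by construction.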
